A study of Arabidopsis thaliana with 16 samples.

Results

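The 40 probe sets described here measure genes that the 2 organelle genomes of Arabidopsis carry: the ribosomal proteins and the RNA polymerase of the plastid, and the respiratory chain and cytochrome c assembly of the mitochondrion. They were taken from 22746 Arabidopsis probe sets as those that name 1 gene in the array's annotation and whose symbol, in lower case, begins with rps, rpl, nad, cox or atp and a number, with rpo and A, B or C, or with ccb, or is cob. They stand for 33 of the 13350 gene names that the array carries on such 1-gene probe sets. The plastid genome holds 19 of them, with 1 probe set each: 4 polymerase subunits, 7 proteins of the large ribosomal subunit and 8 of the small. The mitochondrial genome holds 14, measured by 21 probe sets: 15 for 8 subunits of complex I, 4 for 4 cytochrome c maturation genes, and 1 each for cox1 and cox2. The 19 plastid members matched the TAIR10.1 gene table by gene ID, and the 21 mitochondrial probe sets matched it by name alone. Another 17 probe sets have such a symbol but name several genes, among them those of cob, atp1 and atp9, and were left out of every count of members.

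Seeds of untreated Arabidopsis thaliana, ecotype Ws-0, were sampled while the embryo was heart-shaped, 52 to 85 µm long, in siliques 1.2 to 1.5 cm long. The plants were 38 to 46 days old and grew in continuous light. Laser capture microdissection cut 6 compartments out of paraffin sections, namely the embryo proper, 3 endosperm regions (micropylar, peripheral and chalazal) and 2 seed coat regions (the chalazal seed coat and the remaining seed coat), and whole seeds were captured too. From 5 to 6 ng of RNA per sample, amplified product was hybridised to 16 ATH1 arrays, with 3 for either chalazal region and 2 for each other group. So few arrays limit how precise any value can be, and p-values cover the spread between arrays alone.

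Plastids and mitochondria keep small genomes and translate them on ribosomes of their own, while most of their proteins are encoded in the nucleus and imported. The plastid's bacterial type of RNA polymerase has a core of RpoA, RpoB, RpoC1 and RpoC2, and it transcribes mainly photosynthesis genes, while a phage type of polymerase encoded in the nucleus transcribes rpoB and its neighbours and many genes of the expression machinery. Plastid genes are often read as long shared transcripts, so neighbouring members are not independent measurements. Mitochondrial genes are transcribed by phage-type polymerases alone, and in plants the messages of nad1, nad2 and nad5 are joined in trans from pieces that are transcribed apart.

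Every plastid member and 18 of the 21 mitochondrial probe sets lay above the array's background bound, the 95th percentile of its bacterial control probe sets, on all 16 arrays. Of the other 3, nad2 lay above it on 9 arrays and nad1 257327_at on 6, and nad1 257322_at was above it on 0 arrays and too dim to be tested, so that 39 members were tested. Across arrays the bound ran from 31.1 to 161. The highest bounds were 161 on chalazal endosperm 1 and 137 on chalazal seed coat 2, and the lowest chalazal one was 54.8. The cre control probe sets averaged 194292.5 to 298145 on the chalazal arrays and 91514.95 to 159417.5 on those of the other compartments. Whole seeds gave 120644.5 and 216799.5. The part of these array differences in the chalazal comparisons was not tested. The 3' to 5' signal ratio of GAPDH, a sign of how far amplification reached, ran from 3.49 to 24.7. Seed coat markers were present in endosperm cuts. DFR, a flavonoid enzyme, gave 1417 to 3921 in the peripheral, 340 to 882 in the micropylar and 148 to 523 in the chalazal endosperm. It gave 64.2 to 83.5 in the embryo proper and 12615 to 26245 in the seed coat regions. BAN, a proanthocyanidin enzyme, gave 206 to 413 in the peripheral endosperm and 1759.6 to 10159.5 in the seed coat regions. It was above the bound on 1 of 2 micropylar endosperm arrays and on 0 of 3 chalazal endosperm arrays. Of the 6 endosperm markers 2, AGL80 and IKU1, exceeded the bound on both peripheral endosperm arrays and 3, AGL62 among them, on neither. Their summed signal was 445 to 551 there, 454 to 621 in the micropylar endosperm, 312 to 416 in the embryo proper and 355 to 435 in the seed coat. It was 2483 to 4249 in the chalazal endosperm and 602 to 1316 in the chalazal seed coat. The 3 embryo markers together gave 1396 to 1901 in the embryo proper and 67.7 to 380 in the endosperm. In the chalazal seed coat they gave 386 to 680.1, with PHV above the bound on all 3 arrays. CLV3 was no higher in the embryo proper (52.4 to 56.6) than on the brightest chalazal endosperm array (192). The part of these markers in the results below was not tested.

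Among the 3 chalazal seed coat arrays, replicate 1 was the highest for 19 of 19 plastid and 16 of 20 mitochondrial members. Among the 3 chalazal endosperm arrays, replicate 3 was the lowest for 16 of 19 and 16 of 20. Leaving out chalazal seed coat 1 or chalazal endosperm 3 is given beside each result whose count it changes.

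In a limma test across the 7 groups, 18 of 19 plastid members and 9 of 20 tested mitochondrial members differed at an adjusted p under 0.05, against 55.9% of all tested probe sets. The exception among plastid members was rps18. Without chalazal endosperm 3 the counts were 19 and 11, and without chalazal seed coat 1 they were 19 and 9. Over the 6 compartments, 14 plastid members had their highest mean in the peripheral endosperm and 5 in the chalazal endosperm. Their lowest mean lay in the chalazal seed coat for 14 and in the seed coat for 5. Mitochondrial members had their highest mean in the chalazal seed coat for 11 of 20, in the chalazal endosperm for 6, in the embryo proper for 2 and in the seed coat for 1.

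**Figure D1:**
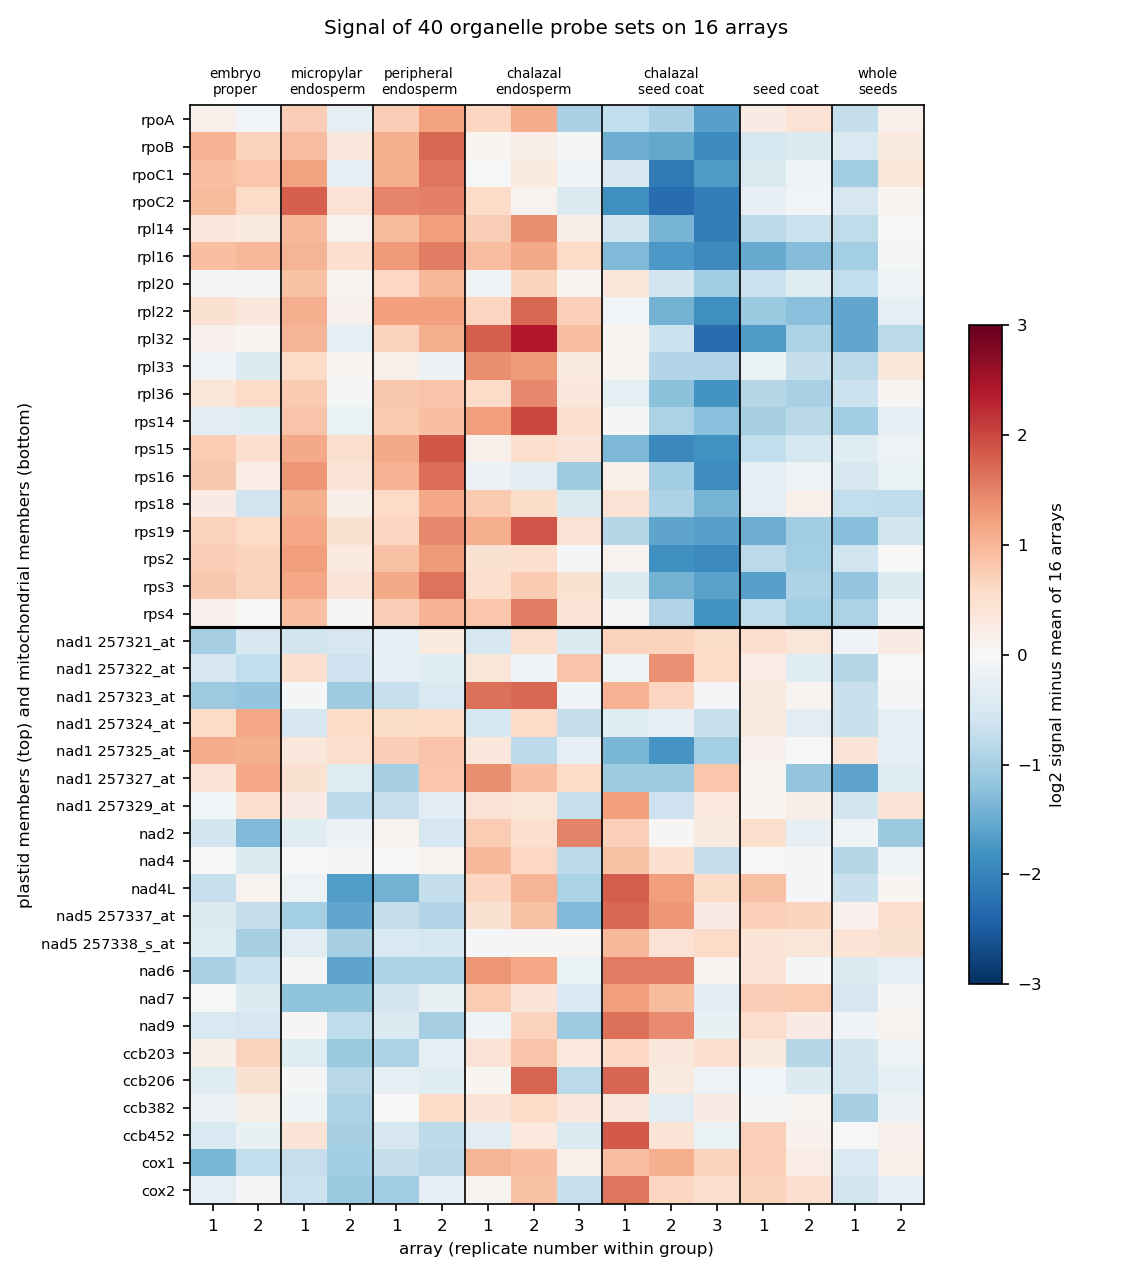
Signal of the 40 member probe sets (19 plastid above the thick line, 21 mitochondrial below) on the 16 arrays, as log2 signal minus each probe set's mean over the arrays, in colour. Plastid members are mostly red in the embryo proper and the endosperm and mostly blue in the seed coat regions, and most mitochondrial members run the other way between the endosperm beside the embryo and the seed coat regions.

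The first comparison asked how the micropylar and peripheral endosperm differ from both seed coat regions, a difference between a product of fertilisation and maternal tissue. Transcripts of the plastid's expression machinery were higher in the endosperm for 18 of 19 members and lower for 0, with a median log2 difference of 1.78 and a range of 0.67 to 2.61. Over all tested probe sets 17.3% were called higher, and the median difference was 0.05. The arrays of the 2 sides did not overlap for 12 of the 19, a description only, as the share over all tested probe sets was not counted. Fewer organelles or cells and less RNA per organelle cannot be told apart in such captured tissue. The plastid median was 1.65 without centring of the arrays and 1.64 with quantile normalisation.

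Of the polymerase genes, rpoC2 (one of the parts into which plastids split the bacterial β' subunit) moved most. Its signal was 10214 and 4800.3 in the micropylar and 9161 and 9131 in the peripheral endosperm, against 837, 776 and 902 in the chalazal seed coat and 2981 and 3164 in the seed coat. The lowest endosperm array stood above the highest seed coat array. The difference was 2.42 ± 0.32 on the log2 scale (model SE), 5.36-fold, with an adjusted p of 8.63e-07 in limma. For rpoB, the β subunit, the difference was 2.06 ± 0.30 (adjusted p = 3.74e-06) with no overlap, and for rpoC1 it was 1.76 ± 0.37 (adjusted p = 0.000426). The α subunit gene rpoA had the smallest difference of the 4. Its signal was 11171 and 6619 in the micropylar and 12423 and 16768 in the peripheral endosperm, 4155, 4504 and 2840.2 in the chalazal seed coat and 9589 and 10307 in the seed coat. The 2 seed coat arrays lay within the range of the endosperm arrays and the 3 chalazal ones under it. Its difference of 0.99 ± 0.35 passed in the main setting (adjusted p = 0.0297) and was lost without centring (0.86, adjusted p = 0.0524). It was also lost on leaving out any 1 of 5 arrays (micropylar endosperm 1, peripheral endosperm 2, seed coat 1, seed coat 2 and chalazal seed coat 3, with adjusted p from 0.0639 to 0.177).

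Of the large-subunit genes 6 of 7 rose. The largest difference among all members was that of rpl16, whose protein sits near the ribosome's tRNA sites. Its signal was 11177 and 9384 in the micropylar and 14839 and 17369 in the peripheral endosperm, against 2288, 2198 and 1922 in the chalazal seed coat and 2309 and 2525 in the seed coat. All 5 seed coat arrays lay close together and far below the endosperm. The difference was 2.61 ± 0.28, 6.12-fold (adjusted p = 2.47e-08). The neighbours rpl22 (2.07 ± 0.35) and rpl14 (1.85 ± 0.31) also separated the 2 sides without overlap. The brightest large-subunit member, rpl33, was the 1 plastid member that missed the threshold. It gave 16874 and 14236 in the micropylar and 14004 and 11086 in the peripheral endosperm, 12438, 8266 and 8086 in the chalazal seed coat and 12009 and 7910.0 in the seed coat. These ranges overlap, and the difference was 0.67 ± 0.29 (adjusted p = 0.0888). Without chalazal seed coat 1 it was 0.82 (adjusted p = 0.03) and all 19 plastid members were called.

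All 8 small-subunit genes were called higher. For rps15 the signal was 5708 and 4344 in the micropylar and 6340.1 and 10324 in the peripheral endosperm, against 1048, 882 and 959.8 in the chalazal seed coat and 1866 and 2038 in the seed coat. There was no overlap, and the difference was 2.32 ± 0.30, 4.98-fold (adjusted p = 6.19e-07). For rps19, a protein of the head of the subunit, the difference was 2.24 ± 0.32 (adjusted p = 3.56e-06), and for rps3, which lines the mRNA entry, 2.29 ± 0.31 (adjusted p = 1.79e-06). The brightest member of the class, rps4, whose protein binds ribosomal RNA early in assembly, differed by 1.59 ± 0.32 (adjusted p = 0.000258). The smallest difference of the class was that of rps18, 1.10 ± 0.38 (adjusted p = 0.0282), which was lost on leaving out any 1 of 5 arrays (micropylar endosperm 1, peripheral endosperm 2, chalazal seed coat 2 and 3, and seed coat 1, with adjusted p from 0.0538 to 0.144).

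**Figure D2:**
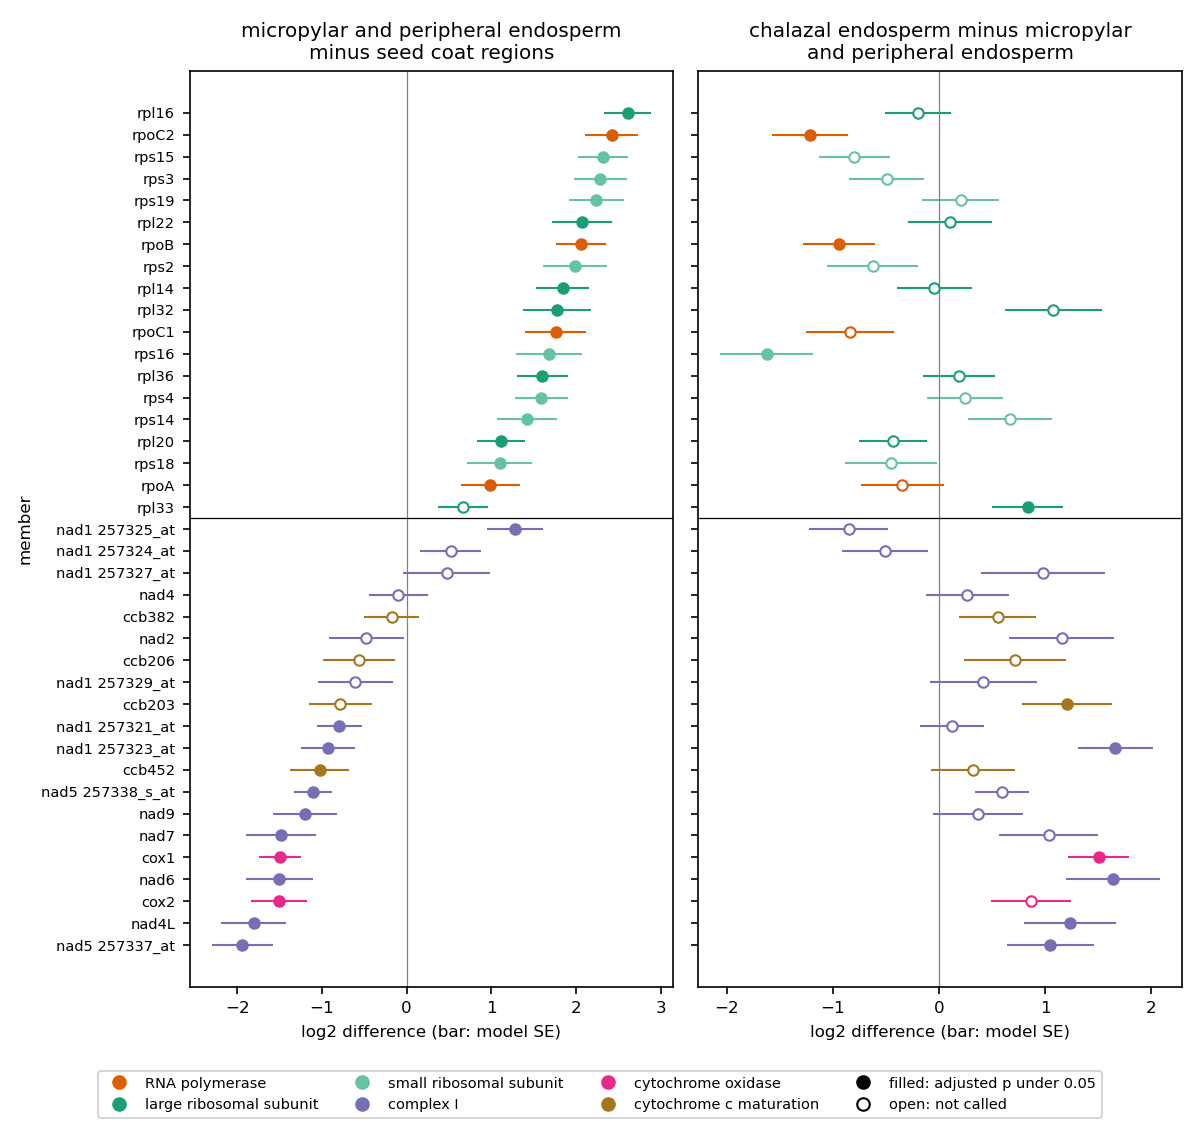
Log2 difference of each tested member with its model SE, for endosperm against seed coat (left) and chalazal against other endosperm (right), coloured by class, with filled points for an adjusted p under 0.05. On the left the plastid members (upper block) lie between 0.67 and 2.61 and most mitochondrial members below 0. On the right plastid members scatter on both sides of 0 and 18 of 20 mitochondrial members lie above it.

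Mitochondrial members ran the other way between the same tissues: 11 of 20 were lower in the endosperm and 1 was higher, with a median of -0.86 (-0.99 without centring and -0.998 with quantile normalisation). Of all tested probe sets 14.2% were called lower. The arrays did not overlap for 8 of the 20, where again the share over all tested probe sets was not counted. All 12 calls kept their side of the threshold without centring and with quantile normalisation. The count of 11 dropped to 7 on leaving out micropylar endosperm 2 or seed coat 1 and was 9 without chalazal seed coat 1.

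Complex I, the entry point of electrons from NADH, was measured by 14 tested probe sets, of which 8 were lower and 1 higher. For nad5 257337_at, 1 of the 2 probe sets of a proton-pumping subunit, the signal was 2346 and 1935 in the micropylar and 3221 and 2806 in the peripheral endosperm, against 16722, 15681 and 7582 in the chalazal seed coat and 9573 and 8725 in the seed coat. The highest endosperm array lay well under the lowest seed coat array. The difference was -1.94 ± 0.36, 3.84-fold lower (adjusted p = 0.000132). The other nad5 probe set also fell (-1.11 ± 0.23, adjusted p = 0.000344). For nad4L, another membrane subunit, the signal was 5826 and 2439.6 in the micropylar and 2701 and 4306 in the peripheral endosperm, 24038, 20853 and 12628 in the chalazal seed coat and 14592 and 7263 in the seed coat. The 2 sides did not overlap, and the difference was -1.81 ± 0.38 (adjusted p = 0.000516). The membrane subunit gene nad6 (-1.50 ± 0.39) and the matrix-arm genes nad7 (-1.49 ± 0.41) and nad9 (-1.20 ± 0.38) fell too. The call on nad9 was lost without micropylar endosperm 2, peripheral endosperm 2 or seed coat 1 (adjusted p from 0.0631 to 0.083). Values for nad4 (-0.10 ± 0.35) and for nad2, which is near background, (-0.48 ± 0.44) did not pass.

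Both cytochrome oxidase genes fell. For cox2, which takes electrons from cytochrome c, the signal was 2077 and 1813 in the micropylar and 1763 and 2976 in the peripheral endosperm, against 10473, 6835 and 6092 in the chalazal seed coat and 6289 and 5309.5 in the seed coat. The sides did not overlap, and the difference was -1.51 ± 0.33 (adjusted p = 0.000786). For cox1, the catalytic subunit, it was -1.49 ± 0.25 (adjusted p = 3.58e-05). Of the 4 cytochrome c maturation genes, which attach haem to cytochromes c, 1 was called: ccb452, the gene now named ccmFC, at -1.03 ± 0.35 (adjusted p = 0.0257). That call was lost on leaving out any 1 of 4 arrays (micropylar endosperm 2, peripheral endosperm 2, chalazal seed coat 1 and seed coat 1, with adjusted p from 0.0738 to 0.196). The other 3 had values of -0.78 ± 0.38 for ccb203, -0.57 ± 0.42 for ccb206 and -0.18 ± 0.32 for ccb382.

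Each probe set's signal was taken relative to its own mean over all arrays, so levels of different probe sets are not compared. Both sets were read on the same arrays, so the plastid median minus the mitochondrial median on this scale does not depend on centring. It was 0.83 and 0.65 in the embryo proper, 1.17 and 1.08 in the micropylar and 1.41 and 1.59 in the peripheral endosperm. It was 0.21, 0.45 and 0.71 in the chalazal endosperm. In the chalazal seed coat it was -1.29, -1.85 and -2.04 and in the seed coat -1.16 and -0.80. Every array of the embryo proper and the endosperm was thus above 0 and every seed coat array below it, while the whole seeds, at -0.25 and -0.00, lay between them. These signs come from the same values as the comparisons above, so they describe single arrays and are not a further test. The 5 seed coat arrays also carried the highest seed coat marker levels of the compartments and the lowest levels of nuclear photosynthesis genes.

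**Figure D3:**
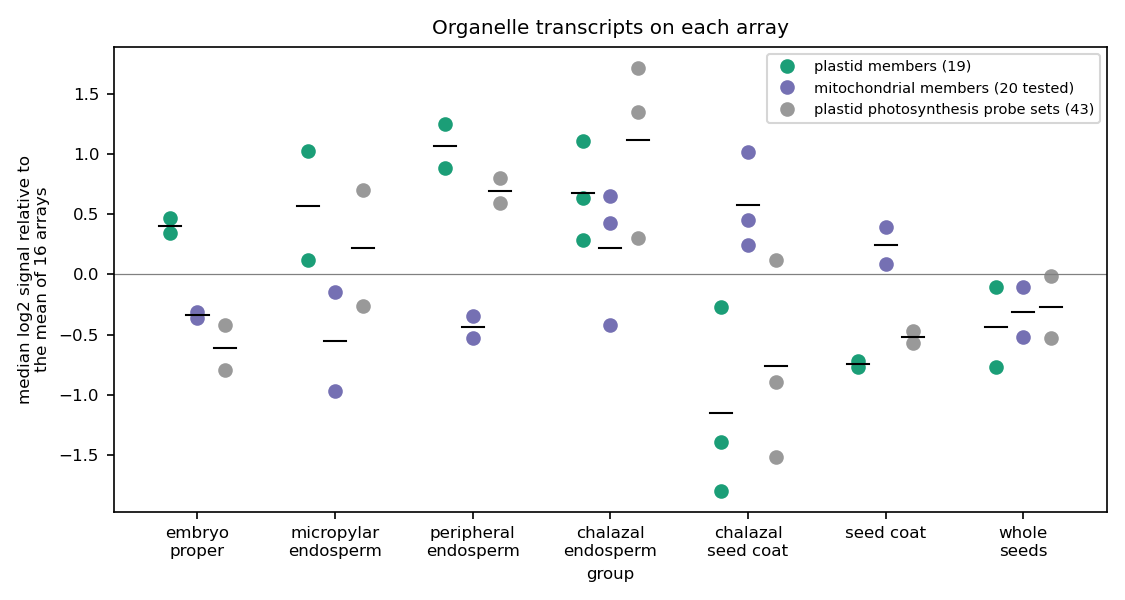
Median log2 signal on each array, relative to each probe set's mean over the 16 arrays, for the plastid members, the mitochondrial members and 43 plastid photosynthesis probe sets, by group, with a black line at the group mean. Plastid members lie above mitochondrial members on all 9 embryo and endosperm arrays and below them on all 5 seed coat arrays. In the embryo proper the photosynthesis probe sets lie below both.

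The other plastid-encoded genes showed the same direction as the plastid members. Of 43 probe sets of photosynthesis genes, 28 were higher in the endosperm and 0 lower, with a median difference of 1.09, and of 7 other plastid genes 4 were higher. All 9 nuclear photosynthesis genes measured were higher, with a median of 3.09. Among nuclear genes that serve the organelles' expression, 1 of 13 for plastid RNA maturation was higher (CRR21, an editing factor, 1.60 ± 0.45, adjusted p = 0.00741), and of 2 for plastid ribosome maturation and translation, RH39, an RNA helicase of ribosomal RNA processing, was higher by 1.66 ± 0.50 (adjusted p = 0.0111). Of 11 probe sets of nuclear respiratory and cytochrome assembly genes, 2 were higher and 0 lower, with a median of 0.54. Over all tested probe sets 17.3% were called higher and 14.2% lower, so counts this small do not set the list apart. The 2 called were GLDH, which makes ascorbate and serves complex I assembly (1.72 ± 0.49), and SDH1-2, a complex II subunit (2.64 ± 0.48). Of the 2 nuclear genes for mitochondrial transcription and RNA, 0 were called in any comparison, 0 of them at an unadjusted p under 0.05. Of the other mitochondria-encoded genes, the maturase gene matR and orfX, orfX fell (-1.03 ± 0.37, adjusted p = 0.0327).

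The chalazal endosperm is a syncytial cyst next to the maternal vascular supply. Against the micropylar and peripheral endosperm it did not show 1 direction for the plastid members: 3 of 19 were lower, 1 was higher and the median was -0.35. Over all tested probe sets 18% were called lower and 19.6% higher, with a median of 0.24. The plastid members are bright, and the scaling moved them: their median was -0.61 without centring, where that of all tested probe sets was -0.03, and -0.91 with quantile normalisation, where it was 0.08. The count lower became 6 and 11 in these settings and the count higher 0 in both. Leaving out micropylar endosperm 1 left 1 member lower, and leaving out micropylar endosperm 2 gave 5. Without chalazal endosperm 3 there were 2 lower and 2 higher, and without chalazal seed coat 1 there were 4 lower and 2 higher.

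The members that were lower were rps16, rpoC2 and rpoB. The small-subunit gene rps16, which has an intron, gave 1049.5, 804 and 459.8 in the chalazal endosperm, against 2973 and 1836 in the micropylar and 2706 and 4104 in the peripheral endosperm. The highest chalazal array lay under the lowest of the others. The difference was -1.62 ± 0.44, 3.08-fold lower (adjusted p = 0.00435), and it was called in every alternative setting and with each array left out. For rpoC2 the 3 chalazal arrays gave 4462, 2759.8 and 1865, of which the highest came near the lowest of the other endosperm arrays and overlapped them on the centred scale, and the difference was -1.22 ± 0.36 (adjusted p = 0.00866). It was -0.88 without micropylar endosperm 1 (adjusted p = 0.069). For rpoB they gave 2791, 2614 and 2164, below all 4 other endosperm arrays at 3964 to 9467. The difference of -0.94 ± 0.34 (adjusted p = 0.0281) was lost on leaving out any 1 of 4 arrays (micropylar endosperm 1, peripheral endosperm 2, chalazal endosperm 1 and 3, with adjusted p from 0.0557 to 0.127). Values for rpoC1 (-0.84 ± 0.41, adjusted p = 0.111) and rps15 (-0.80 ± 0.33, adjusted p = 0.0607) were also below 0 and did not pass.

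Of the 7 large-subunit genes 1 was higher, rpl33, and 0 were lower. For it the chalazal arrays gave 30630.4, 23973 and 11930.4, the first 2 above every other endosperm array and the third within their range. Its difference of 0.83 ± 0.33 was at the threshold (adjusted p = 0.0487). It turned to -0.07 with quantile normalisation (adjusted p = 0.875). It was not called without centring (0.57, adjusted p = 0.167), and it was lost on leaving out any 1 of 9 arrays (embryo proper 1 and 2, micropylar endosperm 2, peripheral endosperm 1 and 2, chalazal endosperm 1 and 2, seed coat 1 and 2). The member with the largest value above 0 was rpl32, with 11052, 14149 and 4962 in the chalazal endosperm against 3046 to 7141 in the other endosperm regions. It did not pass (1.08 ± 0.46, adjusted p = 0.0637). Without chalazal endosperm 3 it was called, at 1.47 (adjusted p = 0.0218), as it was without chalazal seed coat 1 (adjusted p = 0.0442).

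Within an array, the polymerase members set against the plastid ribosomal members give a measure that the centring does not touch. Each probe set was again taken relative to its own mean over all arrays. The median of the 4 polymerase genes minus that of the 15 ribosomal genes was -0.43, -1.02 and -0.67 in the chalazal endosperm. It was 0.04 and -0.09 in the micropylar and 0.27 and 0.32 in the peripheral endosperm, and 0.56 and 0.34 in the embryo proper. The 3 chalazal arrays lay below all of these. In the chalazal seed coat the values were -1.04, -0.60 and 0.00 and in the seed coat 0.45 and 0.82, again lower on the chalazal side. They come from the same values as the tests of single members, so they are not a further test. The genes rpoC2, rpoC1 and rpoB neighbour rps2, which is counted with the ribosomal genes. With quantile normalisation the chalazal endosperm medians moved from -0.89 to -1.28 (polymerase), 0.10 to -0.70 (large subunit) and -0.47 to -0.83 (small subunit).

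The plastid photosynthesis genes stood apart from the expression machinery here: 15 of 43 were higher in the chalazal endosperm and 0 lower, with a median of 0.84, although the median was 0.58 without centring and -0.07 with quantile normalisation. On the same relative scale, the median of the plastid members minus that of the photosynthesis probe sets is not changed by centring. It was -0.71, -0.61 and -0.01 in the chalazal endosperm, 0.32 and 0.38 in the micropylar and 0.29 and 0.45 in the peripheral endosperm. The chalazal arrays were the lower ones. Nuclear photosynthesis genes went the other way from the plastid ones, with 4 of 9 lower and a median of -1.12. Both nuclear genes for plastid ribosome maturation and translation were lower, RH39 (-2.89 ± 0.56, adjusted p = 0.000176) and ATAB2, a translation factor for photosystem messages (-2.93 ± 0.49, adjusted p = 2.85e-05). Their chalazal means, 6.00 and 5.91, lay under the bound of the 3 chalazal arrays on the same log2 scale (6.83 to 7.75), so these sizes are the model's and not exact. Of 13 plastid RNA maturation genes 1 was lower, the editing factor LPA66 (-1.32 ± 0.52).

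**Figure D4:**
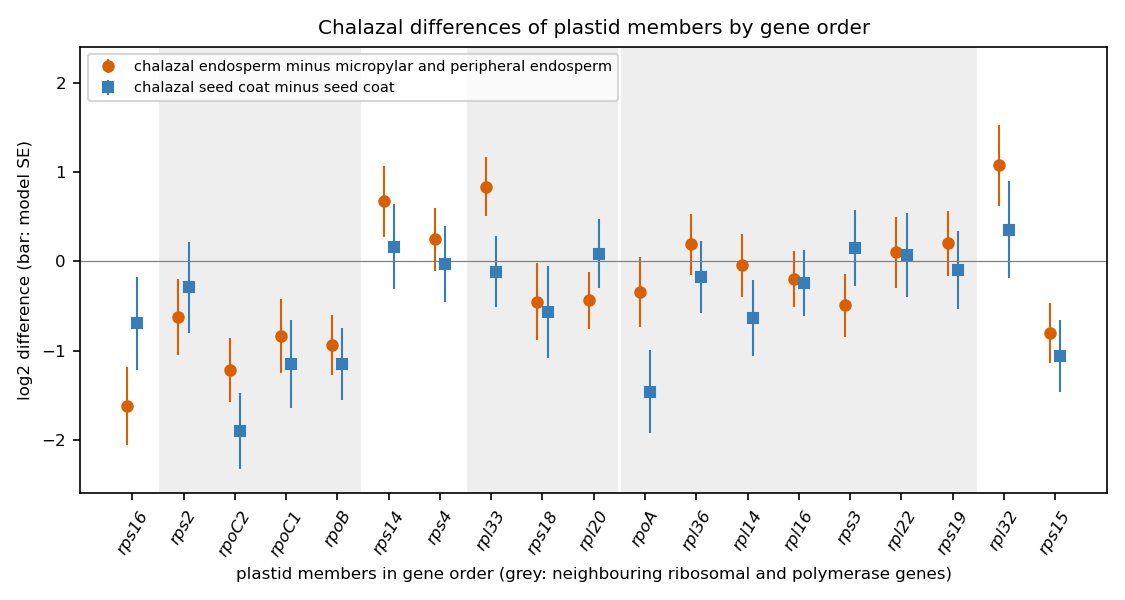
The 19 plastid members in their order along the plastid genome, with grey blocks for runs of neighbouring ribosomal and polymerase genes, against the log2 difference of 2 chalazal comparisons with model SE. The block of rps2, rpoC2, rpoC1 and rpoB lies below 0 in both comparisons, and the long block that starts with rpoA lies near 0 except for rpoA in the seed coat comparison.

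Mitochondrial members were higher in the chalazal endosperm for 6 of 20 and lower for 0 (1 at an unadjusted p under 0.05), with a median of 0.79, 0.52 without centring and 0.49 with quantile normalisation. Over all tested probe sets 19.6% were called higher and 18% lower, with a median of 0.24. That median was -0.03 without centring and 0.08 with quantile normalisation. The count of mitochondrial members higher was 3 in each of these 2 settings. It was also 3 on leaving out micropylar endosperm 2, peripheral endosperm 1 or chalazal endosperm 2, and it was 9 without chalazal endosperm 3. The 2 calls that held in every setting were cox1 and nad6. For cox1 the chalazal arrays gave 27145, 21089.6 and 12506, all above the other endosperm arrays at 7645 to 8916. The difference was 1.50 ± 0.29, 2.84-fold (adjusted p = 0.00013). For nad6 they gave 4174, 3169.8 and 1201, of which the third lay within the range of the other endosperm arrays, 633 to 1555, and the difference was 1.64 ± 0.44 (adjusted p = 0.00453). For nad1 257323_at, the brightest complex I probe set, the difference was 1.66 ± 0.35 (adjusted p = 0.000498) and was 0.68 with quantile normalisation (adjusted p = 0.0635).

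The other 3 calls were less stable. For ccb203, now named ccmFN2, the chalazal arrays gave 737, 845 and 563, above the other endosperm arrays at 281 to 469.7. Its difference of 1.20 ± 0.42 (adjusted p = 0.0263) was lost without centring (0.94, adjusted p = 0.0801) and with no filter, and without micropylar endosperm 2, peripheral endosperm 1 or chalazal endosperm 2 (adjusted p from 0.0795 to 0.103). For nad4L the difference was 1.23 ± 0.43 (adjusted p = 0.0253), lost without centring (0.97, adjusted p = 0.0699), with no filter and with quantile normalisation, where it was 0.63 (adjusted p = 0.21). It was also lost without any 1 of 4 arrays (micropylar endosperm 2, peripheral endosperm 1, chalazal endosperm 1 and 2, with adjusted p from 0.097 to 0.174). For nad5 257337_at it was 1.05 ± 0.41 (adjusted p = 0.0455), lost without centring, with an offset of 1, with no filter and with quantile normalisation, where it was 0.53 (adjusted p = 0.264). It was also lost on leaving out any 1 of 12 of the 16 arrays and was 0.60 without chalazal endosperm 2. The value for cox2 was 0.86 ± 0.37 (adjusted p = 0.0699) and, without chalazal endosperm 3, 1.26 (adjusted p = 0.0119). Of the 11 nuclear respiratory and cytochrome assembly probe sets 1 rose and 2 fell: SDH2-2, an iron-sulphur subunit of complex II, was higher by 1.85 ± 0.36 (adjusted p = 0.000162), while FRO1, a complex I subunit (-1.11 ± 0.40), and CCMH, of cytochrome c maturation (-1.85 ± 0.57), were lower.

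The chalazal seed coat was set against the rest of the seed coat in the same way. Of the plastid members 2 of 19 were lower and 0 higher (0 also at an unadjusted p under 0.05), with a median of -0.24, against 5.64% called lower and 5.21% called higher of all tested probe sets. Both were polymerase genes. Without chalazal seed coat 1 the count lower was 3. For rpoC2 the signals given above leave the 3 chalazal arrays all under the 2 seed coat arrays, and the difference was -1.90 ± 0.43, 3.74-fold lower (adjusted p = 0.00296). It was -1.82 without seed coat 2 (adjusted p = 0.0624). For rpoA it was -1.46 ± 0.47 (adjusted p = 0.0419), again with no overlap. The call on rpoA was lost with an offset of 1 or a stricter filter, and on leaving out any 1 of 8 arrays (both of the embryo proper, peripheral endosperm and seed coat, and chalazal seed coat 2 and 3, with adjusted p from 0.0519 to 0.266). The other polymerase genes had values of -1.15 ± 0.40 for rpoB and -1.15 ± 0.49 for rpoC1 (adjusted p = 0.0642 and 0.148).

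Of the mitochondrial members 1 was lower, nad1 257325_at (-1.45 ± 0.44, adjusted p = 0.0323), and 0 were higher, 0 also at an unadjusted p under 0.05. That call was lost without chalazal seed coat 1 or 2 or either seed coat array (adjusted p from 0.0518 to 0.218). The median was 0.27, and 17 of 20 lay above 0. Of the 2 other mitochondria-encoded genes, matR and orfX, 1 was called higher and 0 lower, and their values lay between 0.63 and 1.55. Chalazal seed coat 1 stood highest in most members, so that for ccb206, a gene of the haem exporter now named ccmB, it gave 8551 where the other 2 gave 3827 and 2839. The photosynthesis probe sets of the plastid had 1 of 43 lower. Of the nuclear respiratory genes SDH2-2 and FRO1 were lower (-1.93 ± 0.43 and -1.46 ± 0.47), and so was OTP80, an editing factor for plastid rpl23 (-2.02 ± 0.63, adjusted p = 0.0337).

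The 2 chalazal tissues, one from fertilisation and one maternal, were then compared with each other. The plastid members were higher in the chalazal endosperm for 16 of 19 and lower for 0, with a median of 1.85 and a range of 0.40 to 2.67, where 19.7% of all tested probe sets were called higher and the median was 0.31. The plastid median was 1.42 without centring, where that of all tested probe sets was -0.12, and 1.14 with quantile normalisation. Without chalazal seed coat 1 the count was 18 and without chalazal endosperm 3 it was 17. The arrays did not overlap for 14 of the 19, with the share over all tested probe sets not counted. Of the 16 calls 11 held in all settings. For rpl32, of the large subunit, the chalazal endosperm gave 11052, 14149 and 4962 and the chalazal seed coat 3338, 2569.8 and 807. The lowest of the first lay above the highest of the second, and the difference was 2.67 ± 0.49, 6.38-fold (adjusted p = 7.77e-05). For rps19 they gave 9624, 14329.9 and 5063 and 2539, 1947 and 1860.4, with a difference of 2.49 ± 0.39 (adjusted p = 9.40e-06). For rpl16 it was 2.53 ± 0.33 (adjusted p = 7.24e-07). The 3 members not called were rps16 (0.40 ± 0.47), rpl20 (0.64 ± 0.34) and rps18 (0.93 ± 0.46). The plastid photosynthesis probe sets were higher for 37 of 43, with a median of 1.92, 1.49 without centring and 1.01 with quantile normalisation.

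Few mitochondrial members were called between the chalazal tissues, and their count changed with the scaling. In the main setting 1 of 20 was higher, nad1 257325_at (1.15 ± 0.40, adjusted p = 0.0253), and 0 were lower (5 at an unadjusted p under 0.05), with a median of -0.28. Of all tested probe sets 19.7% were called higher and 15.3% lower. Without centring 0 were higher and 7 lower, with a median of -0.71, and with quantile normalisation 0 were higher and 8 lower, with a median of -0.86. Leaving out chalazal endosperm 2 gave 5 lower, leaving out chalazal seed coat 3 gave 3 and leaving out chalazal endosperm 1 gave 1. Leaving out chalazal endosperm 3 gave 2 higher. The call on nad1 257325_at was lost without chalazal endosperm 1 or chalazal seed coat 2 (adjusted p from 0.093 to 0.119). The 2 other mitochondria-encoded genes, matR and orfX, were both called lower in the chalazal endosperm, with values between -1.56 and -1.16. Of the nuclear respiratory probe sets 4 of 11 were higher in the chalazal endosperm, beside 19.7% of all tested probe sets, SDH2-2 by the most (2.81 ± 0.38).

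Whether the chalazal difference was the same in the endosperm and in the seed coat was tested as an interaction. For plastid members 0 of 19 were called in either direction by limma, and 0 at an unadjusted p under 0.05. For mitochondrial members 0 of 20 were called, with 2 higher at an unadjusted p under 0.05, cox1 at 1.09 ± 0.44 (adjusted p = 0.0866) and nad1 257323_at at 1.29 ± 0.55 (adjusted p = 0.101). Over all tested probe sets 10.7% were called higher and 9.25% lower. Without chalazal endosperm 3, 1 plastid and 2 mitochondrial members were called higher. Of the lists, 6 of 43 plastid photosynthesis probe sets were called higher, beside the 10.7% of all tested probe sets. SDH2-2 was called higher, at 3.78 ± 0.56 (adjusted p = 1.92e-05 in limma), and so was 1 of 13 nuclear genes for plastid RNA maturation. Called lower were 1 of 2 nuclear genes for plastid ribosome maturation and translation, 1 of 9 nuclear photosynthesis genes and 1 of 3 embryo markers.

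The embryo proper was set against the micropylar and peripheral endosperm. Here 0 of 19 plastid members were called by limma (1 lower at an unadjusted p under 0.05), and all 19 had values below 0, with a median of -0.52, -0.33 without centring and -0.29 with quantile normalisation. Over all tested probe sets 3.17% were called lower and 2.58% higher, and the median was -0.22 (-0.03 without centring). The member closest to the endosperm was rpoC1, which gave 7897 and 7266 in the embryo proper, within the 3199 to 11045 of the endosperm, and its difference was -0.03 ± 0.47. The largest value was that of rps14, with 2222 and 2114 in the embryo proper, under all 4 endosperm arrays at 2296 to 4564 (-0.94 ± 0.45, adjusted p = 0.287). The plastid photosynthesis probe sets were lower for 7 of 43 and higher for 0, with a median of -1.03. Relative to each probe set's mean over all arrays, the plastid median exceeded the photosynthesis median by 0.89 and 1.13 in the embryo proper. This compares deviations from those means and not signal levels. The same measure was 0.29 to 0.45 on the 4 micropylar and peripheral endosperm arrays and below 0 on all chalazal endosperm and seed coat arrays.

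Mitochondrial members also had 0 of 20 called in the embryo proper (1 higher at an unadjusted p under 0.05), with a median of 0.28. That 1 was ccb203, at 788 and 1074 against 281 to 469.7 in the endosperm, with no overlap and a difference of 1.12 ± 0.48 (adjusted p = 0.213).

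Whole seeds hold all compartments. Their mean lay within the range of the 6 compartment means for 18 of 19 plastid and 15 of 20 mitochondrial members. Replicate 2 stood above replicate 1 for 18 of the 19 plastid members, as for rpl16 at 3806 and 8037 and rpoC1 at 2267 and 6343.

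Correlations among plastid members were compared by gene order, as a description. Over the 16 arrays, which share their groups, the median correlation of log2 signals was 0.923 for 30 pairs of members in the same run of neighbouring ribosomal and polymerase genes and 0.795 for 141 pairs in different runs. It was 0.941 within the run from rpoA through rpl36, rpl14, rpl16, rps3 and rpl22 to rps19, and 0.915 within rps2, rpoC2, rpoC1 and rpoB. Within rpl33, rps18 and rpl20 it was 0.606, and these 3 did not share 1 sign, with rpl33 at 0.83 and rps18 and rpl20 at -0.45 and -0.44 in the chalazal endosperm. The rps2 to rpoB run had a median of -0.89 in the chalazal endosperm comparison and of -1.15 in that of the chalazal seed coat. The run that starts with rpoA had medians of -0.04 and -0.18, and rpoA itself, at -1.46 in the chalazal seed coat, stood apart from its 6 neighbours there, whose values lay between -0.64 and 0.15. Between plastid and mitochondrial members the median correlation was -0.15 over 380 pairs, and among mitochondrial members it was 0.489 over 190 pairs.

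The 7 probe sets of nad1, a membrane subunit of complex I, did not report the same pattern. The brightest, 257323_at, gave 11819 and 10816 in the embryo proper, 18953 and 11289.8 in the micropylar and 13598 and 15758 in the peripheral endosperm, and 63382, 56698 and 15838 in the chalazal endosperm. Of the seed coat regions, the chalazal seed coat gave 42987, 41217 and 25025 and the seed coat 28878 and 23926. Its mean was lowest in the embryo proper, and it was highest on 2 chalazal endosperm arrays. In contrast 257325_at gave 3833 and 3592 in the embryo proper, 1749 and 2391 in the micropylar and 2579.5 and 2756 in the peripheral endosperm, and 1796, 684 and 961 in the chalazal endosperm. Of the seed coat regions, the chalazal seed coat gave 537, 521 and 894 and the seed coat 1831 and 1566. On average 257325_at was highest in the embryo proper and lowest in the chalazal seed coat, where 14 of 19 plastid members also had their lowest mean.

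In endosperm against seed coat, 257325_at was higher by 1.28 ± 0.33 (adjusted p = 0.00346), with no overlap on the centred scale, and was the 1 mitochondrial member called in that direction. The probe sets 257321_at and 257323_at were lower, at -0.79 ± 0.27 and -0.93 ± 0.31 (adjusted p = 0.0243 and 0.0241), and 257324_at, 257327_at and 257329_at were not called (0.52 ± 0.36, 0.47 ± 0.52 and -0.60 ± 0.44). The call on 257321_at was lost on leaving out any 1 of 5 arrays (both of the micropylar endosperm and the seed coat, and peripheral endosperm 1) and that on 257323_at on leaving out any 1 of 6 (micropylar endosperm 2, chalazal seed coat 1, and both of the peripheral endosperm and the seed coat), with adjusted p up to 0.162. The call on 257325_at held in every setting and with each array left out. Over the 16 arrays the correlation of 257325_at was -0.75 with 257321_at and -0.64 with 257323_at, and 0.506 with 257324_at. Which strand or which part of the split gene each probe set reads was not analysed here. The mitochondrial genome also has a copy inserted into nuclear chromosome 2, and a probe set can read both. The 2 nad5 probe sets moved in the same direction in the endosperm comparisons, with -1.94 and -1.11 against the seed coat and 1.05 and 0.59 in the chalazal endosperm.

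**Figure D5:**
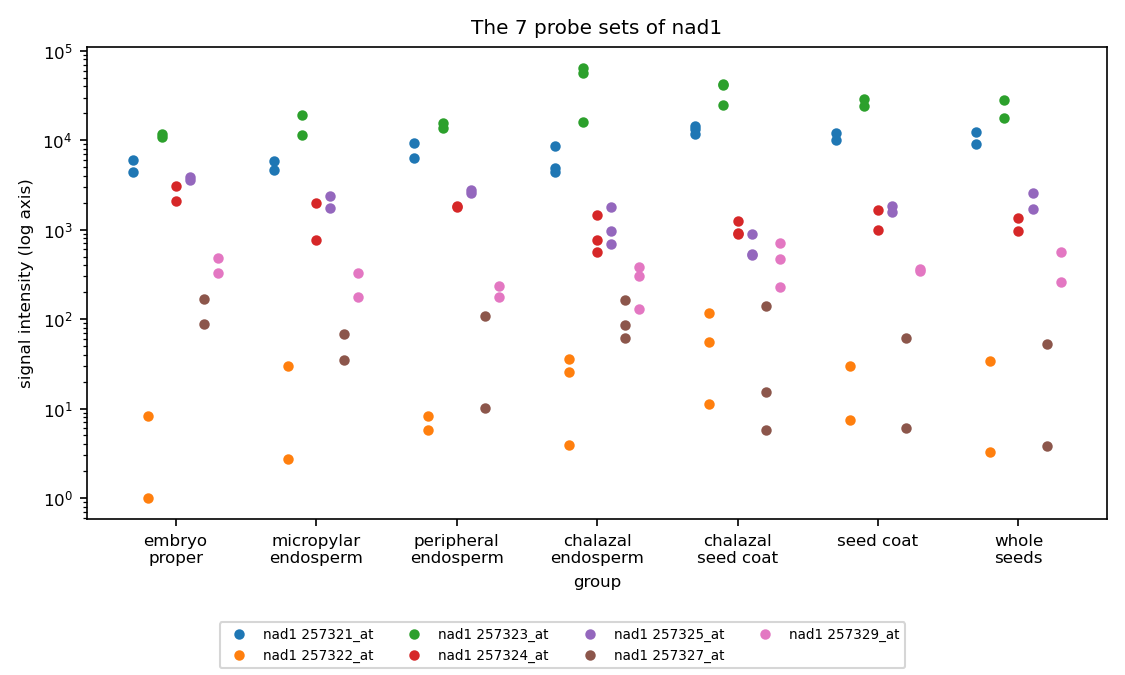
Signal intensity (log axis) of the 7 nad1 probe sets on each array, by group. From the micropylar and peripheral endosperm to the seed coat regions 257321_at and 257323_at go up, with 257323_at highest in the chalazal endosperm, 257325_at goes down to 521 to 894 in the chalazal seed coat, and 257322_at stays near background throughout.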

How the data were processed

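RNA of 7 groups was measured on 16 ATH1 arrays. The authors processed them with the Affymetrix GCOS software, per the submitters' processing notes, with version and settings not given in the sources used here. They deposited linear signal intensity, whose mean per array, trimmed by 2% at either end, was 500.04 to 500.08. Per the labels' protocols, tissue was fixed in ethanol and acetic acid, and RNA was treated with DNase on the column before amplification. DNA left from organelles, and the unequal reach of amplification along messages, were not tested. Scanner images and the software's detection calls were not used here.

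The values tested were log2(signal + 30.2), with the 25th percentile of all values as the offset. Each array was then centred on the median of its tested probe sets. The 19475 tested were those above the 40th percentile of an array on 2 or more arrays. A model of 7 group means was fitted over all of them with limma 3.58.1 (eBayes, trend on mean intensity, 9 residual degrees of freedom) in R 4.3.3, two-sided, with Benjamini-Hochberg adjustment over all tested probe sets at 0.05. It was also run on simulated data, and the outcome is not given here. Differences subtract the second side named from the first, errors are the SE of the model, and overlap was judged on the centred values. Replicate numbers were not used as pairs.

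The members and lists were chosen with earlier results of these data known. Members described in full were picked per comparison and per genome, and number 18 in all. They are up to 3 called members with the largest absolute difference and no overlap, and the brightest of each class. Other members are named where a count of 5 or fewer or a run of neighbours calls for it, after their values were seen. The organelle genome was taken from the TAIR10.1 gene table, plastid members by gene ID and mitochondrial ones by name, in place of a locus prefix. No coordinates or sequences are given, since no genome was used here and the build of the probe sets is not stated by these sources. The list of nuclear plastid transcription genes had 0 members named on the array, and 2 genes that its symbol rule caught in the respiratory list (GAMMA-VPE and FAC1) were left out as unrelated. 3 members carry the suffix _s_at, for probe sets that can match several transcripts. Alternatives were no centring, quantile normalisation, an offset of 1, no filter, a filter at the 50th percentile, the replicate number as a block, and leaving out each array in turn.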

Additional observations from a re-analysis of the deposited data

How the results depend on the processing

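Endosperm against seed coat kept its counts within 1.5 times in every alternative setting other than leaving out an array. Leaving out each array in turn gave 16 to 19 plastid members higher and 0 lower, and 1 mitochondrial members higher and 7 to 11 lower. In the chalazal endosperm against the other endosperm the plastid count higher, 1, was 0 without centring, with quantile normalisation, with an offset of 1 and with no filter, 2 with a stricter filter and 3 with the replicate block. The count lower, 3, was 6 without centring and 11 with quantile normalisation. The mitochondrial count higher, 6, was 3 without centring, with quantile normalisation and with no filter, 10 with a stricter filter and 11 with the replicate block, and the count lower, 0, was 1 without centring, with quantile normalisation and with no filter. With 1 array left out these 4 counts ran from 0 to 2, 1 to 5, 3 to 9 and 0 to 1. Of single members, rpl33 in the chalazal endosperm turned from 0.83 to -0.068 with quantile normalisation. The embryo counts were 0 throughout. Chalazal seed coat against seed coat had 2 plastid members lower, and 1 with an offset of 1, a stricter filter or the replicate block, and 0 mitochondrial members higher, but 1 with the block. Leaving out arrays gave 0 plastid members higher, 0 to 3 lower, 0 mitochondrial members higher and 0 to 1 lower. Between the chalazal tissues the mitochondrial count higher, 1, was 0 without centring and with quantile normalisation, and the count lower, 0, was 7 without centring, 8 with quantile normalisation, 3 with no filter and 5 with the replicate block. Leaving out arrays gave 14 to 18 plastid members higher, 0 lower, 0 to 2 mitochondrial members higher and 0 to 5 lower. In the interaction 1 plastid member was lower with quantile normalisation and 2 mitochondrial members were higher with the block, and leaving out arrays gave 0 to 1 and 0 to 2 higher and 0 lower. Across the 7 groups, leaving out arrays gave 16 to 19 plastid and 8 to 13 mitochondrial members. The causes were not tested. Replicate numbers do not pair the samples: 21 correlations of same-numbered deviations ran from -0.038 to 0.096, 0 above 0.1, so a call gained or lost under the block is not read as a stronger or weaker effect. Groups of 2 or 3 arrays limit every count, and nad2 and nad1 257327_at are limited by signal over background.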

Other observations

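The 17 probe sets that name several genes were kept out of the counts, and they extend the account to genes with no probe set of their own. Of them, 5 name the same plastid gene 2 times, as genes of the plastid's repeated region do: rps12 by 2 probe sets, rpl2, rpl23 and rps7. In endosperm against seed coat 4 of the 5 were higher and 0 lower, with a median of 1.48, where 17.3% of all tested probe sets were called higher. The exception was rpl23, at 0.81 (adjusted p = 0.117 in limma). All 5 were higher in the chalazal endosperm than in the chalazal seed coat, with a median of 1.98, where 19.7% of all tested probe sets were called higher. The probe set that names both rps3 and rpl16 was not called against the seed coat (-0.59, adjusted p = 0.35 in limma).

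A further 11 pair a mitochondrial gene with a locus of nuclear chromosome 2, so that mitochondrial and nuclear copies cannot be told apart. Against the seed coat 2 of the 11 were higher in the endosperm and 4 lower, with a median of -0.43. Over all tested probe sets 17.3% were called higher and 14.2% lower. In the chalazal endosperm against the other endosperm 4 were higher and 1 lower, beside 19.6% and 18% of all tested probe sets. Against the seed coat the endosperm was lower for atp9, the ring subunit of ATP synthase (-1.49, adjusted p = 3.93e-05), for cob, the cytochrome b of complex III (-1.43, adjusted p = 0.000127), and for cox3 (-1.09, adjusted p = 0.0178). The same 3 were higher in the chalazal endosperm than in the other endosperm, by 1.98, 1.46 and 1.39. Of them atp9 alone was also higher in the chalazal seed coat than in the seed coat (1.43, adjusted p = 0.00512 in limma). For atp1, of the catalytic part of ATP synthase, the value against the seed coat was -0.43 (adjusted p = 0.123), and it was higher in the chalazal endosperm by 0.61 (adjusted p = 0.0415). The mitochondrial ribosomal genes did not share 1 sign. Against the seed coat rpl2 was lower (-1.46, adjusted p = 0.00172) and rps4 was higher (0.91, adjusted p = 0.0276), and in the chalazal endosperm rps7 was lower (-1.75, adjusted p = 0.000117). One of the 2 nad1 probe sets of this kind was higher in the endosperm than in the seed coat (1.54, adjusted p = 0.0223), the direction of nad1 257325_at, and the other had a value of -0.05 (adjusted p = 0.956). These probe sets were described after their values were seen.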
